A study of Homo sapiens with 5 samples.

Results

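The genes described here make, move and export cholesterol. They are 31 genes, chosen by symbol from the 57992 genes of the count table, and each symbol matched 1 gene. By role they are 7 enzymes of the mevalonate arm, 11 of the sterol arm, 3 controllers of the transcription factor SREBP2, 3 intracellular transporters, 5 genes of the LXR receptors and of efflux, the ester-forming enzyme SOAT1, and GGPS1, which leads away to isoprenoids. All 31 passed the filter on low counts, and ABCA1 had the lowest CPM of them in every library. The data were poly(A) RNA-seq libraries of Ishikawa cells, a human cell line established from an endometrioid cancer of the endometrium. In 2 libraries the cells had grown for 3 days under differentiated adipocytes, held apart by a membrane with 0.4 µm pores, and in 2 others EX527, which inhibits the deacetylase SIRT1, was added to that co-culture (its dose is not in the labels). Cells grown alone gave the last library, so n = 1 for monoculture, and no cells received EX527 without adipocytes. An effect of EX527 through the adipocytes therefore cannot be told apart from one in the cancer cells. The labels do not give the origin of the preadipocytes and do not say that replicates came from separate cultures, so p-values reflect only how far these libraries differ, and that spread can be technical.

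Cells make cholesterol from acetyl-CoA, first by way of mevalonate to farnesyl diphosphate and then through squalene and lanosterol. When sterols in the endoplasmic reticulum run low, SCAP carries SREBP2 to the Golgi for cleavage, and the released factor turns on the genes of synthesis and uptake, while INSIG proteins hold SCAP back when sterols are plentiful. When oxidised sterols build up, the LXR receptors turn on ABCA1 and ABCG1, which pass cholesterol to lipoproteins, and MYLIP, which sends lipoprotein receptors to degradation.

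Libraries held 45653845 to 52269963 counted reads. Levels are in CPM, the counts after TMM scaling to library size, and differences between groups are log2 fold changes. Both co-culture libraries were close to each other, and both EX527 libraries were not: over 11232 well-read genes the SD of the log2 difference between replicates was 0.112 and 0.605, and over the 31 members it was 0.0989 and 0.583. EX527 co-culture replicate 1 stood apart, with 33325 genes at 10 reads or more, against 26022 to 27103 in the others. With all 5 libraries, the edgeR quasi-likelihood test called none of 34658 genes in any comparison, although 5526 were under an unadjusted p of 0.05 in co-culture against monoculture, 6702 in EX527 co-culture against co-culture and 2555 in EX527 co-culture against monoculture. The main results are therefore given with all libraries, and then with each EX527 library left out in turn, replicate 1 first. Some genes are given by their levels alone or by part of these values. The fits that leave out an EX527 library take the spread from the co-culture pair only. They assume that the single libraries of the other groups vary as that pair does. For co-culture against monoculture both fits compare the same libraries, so the second is not a separate check. Dropping co-culture replicate 1 or 2 left no member called. All 9 epithelial markers were read in every library, at 5.35 CPM or more, and they summed to 2328 CPM in monoculture, 6629 and 6044 in co-culture and 1394 and 2361 under EX527. Of 10 adipocyte markers, ADIPOQ, FABP4 and LEP were highest in EX527 replicate 1, at 0.900, 0.600 and 0.583 CPM. In the other libraries ADIPOQ was at 0.0205 to 0.255 CPM, FABP4 at 0.0426 to 0.180 and LEP at 0.0450 to 0.138. PLIN4, LIPE and GPD1 were lowest in EX527 replicate 1, at 3.87, 5.47 and 0.318 CPM. The list summed to 66.7 CPM in monoculture, 37.5 and 36.7 in co-culture and 41.3 and 51.8 under EX527. That order followed PPARG, at 42.7 CPM in monoculture, 7.40 and 6.90 in co-culture and 18.6 and 25.9 under EX527. CFD went the other way, at 5.26 CPM in monoculture, 11.0 and 11.0 in co-culture and 8.19 and 7.03 under EX527. Of 10 fibroblast and preadipocyte markers, DCN and DLK1 were at 0 in 1 co-culture library each, DCN also in EX527 replicate 2. They reached 1.24 and 0.989 CPM in EX527 replicate 1, where PDGFRB and FAP were also highest, at 1.89 and 2.17 CPM. That list summed to 208 CPM in monoculture, 142 and 127 in co-culture and 113 and 271 under EX527. COL1A2 was the largest part of the monoculture sum, at 122 CPM, against 20.7 and 20.4 in co-culture and 70.3 and 189 under EX527. COL1A1 was instead higher in co-culture, at 91.8 and 78.8 CPM, than in monoculture, at 58.1 CPM. The part of these markers in the results was not tested.

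In co-culture, the enzymes MSMO1, SQLE and CYP51A1, the controller INSIG1 and the transporter STARD4 were read 1.87-fold to 3.02-fold lower than in monoculture. SCAP was 2.90-fold, ABCA1 2.98-fold and TM7SF2 4.27-fold higher. None of these genes passed the test with all 5 libraries. Leaving out either EX527 library gave nearly the same fold changes, since the co-culture and monoculture libraries compared stayed the same. With EX527 the 5 lower genes were also below monoculture in both libraries. ABCA1 was then at 3.32 and 2.19 CPM, against 3.41 CPM in monoculture, and TM7SF2 at 11.7 and 18.8 CPM, against 12.2 CPM. SCAP was at 31.02 and 88.7 CPM, on both sides of its 50.6 CPM in monoculture. In bulk libraries, fewer cells of a kind and less RNA per cell cannot be told apart. Directions against monoculture were mixed in co-culture, with 17 of the 31 members positive and 14 negative, as the map of ratios to monoculture shows. Of all genes tested, 45.6% were negative in that comparison. EX527 against co-culture was mostly negative, in 26 of 31, where 43.8% of all genes tested were.

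**Figure D1:**
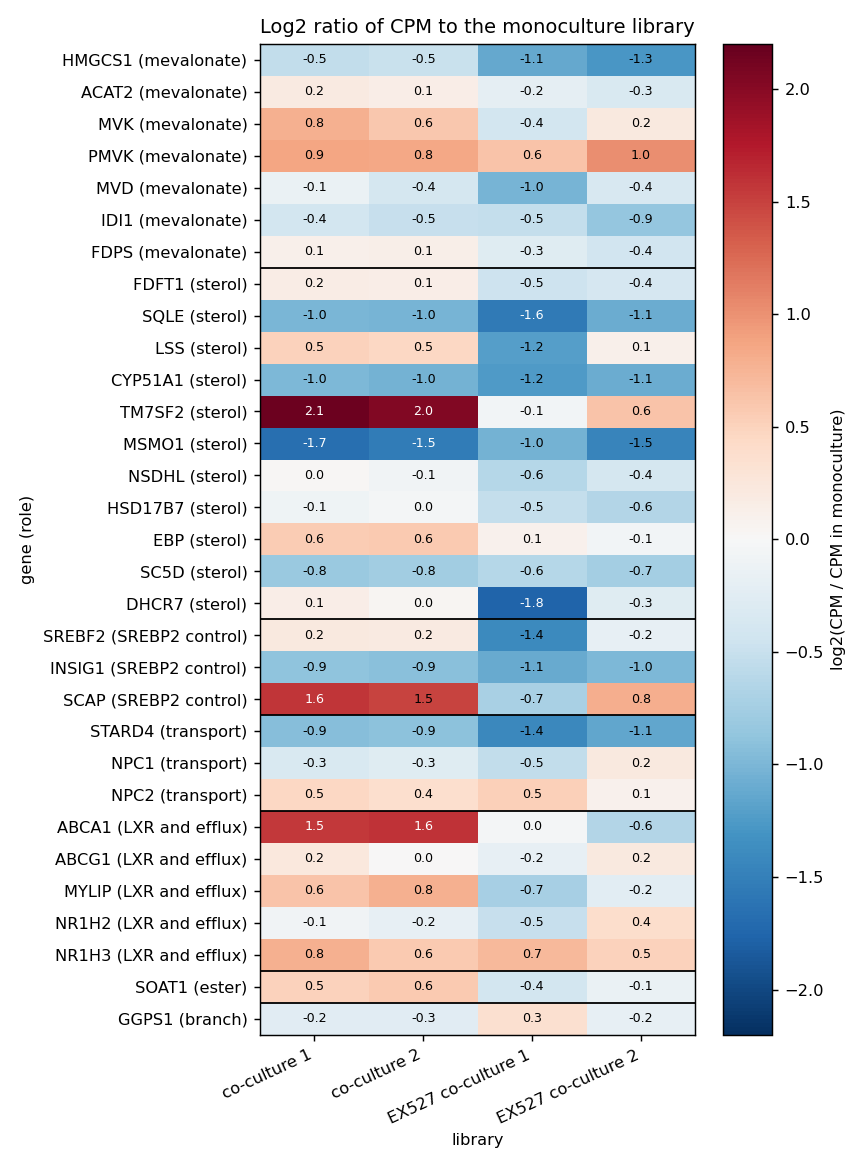
Each cell gives the log2 ratio of a member's CPM in 1 co-cultured library (columns) to its CPM in the single monoculture library, with genes in rows grouped by role. MSMO1, SQLE, CYP51A1, INSIG1 and STARD4 are below 0 in all 4 columns, whereas ABCA1, TM7SF2 and SCAP are above 0 in both co-culture columns.

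The promoters of 4 of the genes that were low together, and of ABCA1 and SREBF2, are shown so that a reader can see what sequence lies at their starts. RefSeq gives windows of 250 bases before to 50 after the start (GRCh38.p14) for 27 of the 31 genes. Capitals mark, on either strand, the sterol regulatory element core TCACNCCAC, the CCAAT box bound by NF-Y, and the LXR element, which is AGGTCA repeated after a spacer of 4 bases.
MSMO1, chr4:165327419-165327718, plus strand: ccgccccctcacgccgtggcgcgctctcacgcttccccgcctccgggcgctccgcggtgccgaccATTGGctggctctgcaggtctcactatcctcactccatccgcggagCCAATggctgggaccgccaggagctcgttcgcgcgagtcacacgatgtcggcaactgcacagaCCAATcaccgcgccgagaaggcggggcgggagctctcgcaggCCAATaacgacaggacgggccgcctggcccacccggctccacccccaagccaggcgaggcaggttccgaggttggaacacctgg
STARD4, chr5:111512486-111512785, minus strand: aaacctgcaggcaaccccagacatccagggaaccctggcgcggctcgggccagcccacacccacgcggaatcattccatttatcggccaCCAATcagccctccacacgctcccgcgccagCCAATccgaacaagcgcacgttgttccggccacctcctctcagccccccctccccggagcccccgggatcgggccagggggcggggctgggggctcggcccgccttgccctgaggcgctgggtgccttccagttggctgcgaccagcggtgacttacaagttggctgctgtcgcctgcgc
INSIG1, chr7:155297628-155297927, plus strand: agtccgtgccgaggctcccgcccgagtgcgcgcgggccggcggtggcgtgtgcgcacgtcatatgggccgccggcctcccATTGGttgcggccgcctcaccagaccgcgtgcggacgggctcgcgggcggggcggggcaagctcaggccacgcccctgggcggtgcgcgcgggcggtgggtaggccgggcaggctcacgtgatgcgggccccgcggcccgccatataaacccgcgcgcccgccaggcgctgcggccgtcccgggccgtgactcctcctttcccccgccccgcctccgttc
CYP51A1, chr7:92134428-92134727, minus strand: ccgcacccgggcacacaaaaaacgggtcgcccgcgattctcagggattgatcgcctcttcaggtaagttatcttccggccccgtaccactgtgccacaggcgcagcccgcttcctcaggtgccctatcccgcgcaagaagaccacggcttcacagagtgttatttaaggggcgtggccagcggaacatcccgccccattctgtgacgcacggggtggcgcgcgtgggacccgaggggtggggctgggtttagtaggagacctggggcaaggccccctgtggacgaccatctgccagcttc
SREBF2, chr22:41832855-41833154, plus strand: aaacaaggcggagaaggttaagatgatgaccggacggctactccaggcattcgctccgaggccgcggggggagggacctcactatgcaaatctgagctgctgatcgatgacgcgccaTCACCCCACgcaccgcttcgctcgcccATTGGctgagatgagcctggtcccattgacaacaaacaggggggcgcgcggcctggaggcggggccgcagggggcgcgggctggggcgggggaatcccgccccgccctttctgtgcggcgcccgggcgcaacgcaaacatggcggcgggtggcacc
ABCA1, chr9:104928106-104928405, minus strand: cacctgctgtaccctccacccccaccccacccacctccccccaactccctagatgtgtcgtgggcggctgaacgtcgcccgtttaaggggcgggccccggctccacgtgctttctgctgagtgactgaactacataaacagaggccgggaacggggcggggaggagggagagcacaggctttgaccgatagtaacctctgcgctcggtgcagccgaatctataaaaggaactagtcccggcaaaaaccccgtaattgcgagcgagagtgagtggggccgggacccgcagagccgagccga

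The CCAAT box stood in 23 of the 38 windows of members, which belong to 27 genes, against 34.6% of 35116 windows over all genes. MSMO1 had 4 of them, STARD4 had 2, INSIG1 and SREBF2 had 1 each, and CYP51A1 and ABCA1 had none. The exact core TCACNCCAC was found in the window of SREBF2 alone among members, and in 1.13% of all windows. The LXR repeat was in no member's window and in 0.0199% of all windows. The GC box GGGCGG, not marked above, stood in 33 of the 38 windows of members, against 45.0% of all windows. These are matches of letters and not tested sites, and an absent match says only that those letters are not in the window.

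The mevalonate arm runs from acetyl-CoA units to farnesyl diphosphate. HMGCS1 (chromosome 5, 43287470 to 43313512, GRCh38), which makes HMG-CoA, was read at 207 CPM in monoculture, 143 and 148 in co-culture and 94.6 and 85.2 CPM under EX527. Its 3 groups did not overlap and stepped down in that order. The log2 fold change was -0.51 for co-culture against monoculture (SE 0.21, edgeR adjusted p = 0.347) and -0.69 for EX527 against co-culture (SE 0.18, adjusted p = 0.174). Both differences passed without EX527 replicate 1, the first at -0.56 (adjusted p = 2.94e-11) and the second at -0.76 (adjusted p = 3.01e-17). Dropping replicate 2 instead gave -0.55 for the first (adjusted p = 1.26e-07) and -0.57 for the second (adjusted p = 1.18e-07). An unnamed antisense gene at 31.4 to 92.1 CPM shares 2497 exon bases with HMGCS1.

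IDI1, the isomerase that makes the active isoprene unit, was at 174 CPM in monoculture, 132 and 123 in co-culture and 121 and 96.5 CPM under EX527, so that all 4 co-cultured libraries lay below monoculture. IDI1 shares 643 exon bases with the antisense gene IDI2-AS1, itself at 90.7 to 167 CPM, and without stated strand counting the reads of both cannot be told apart. MVD, which decarboxylates mevalonate diphosphate, was at 78.7 CPM in monoculture, 71.5 and 59.9 in co-culture and 38.7 and 61.3 CPM under EX527, which overlap those of co-culture. The kinases went the other way in co-culture. MVK, mevalonate kinase, was read at 29.3 CPM in monoculture, 50.5 and 44.2 in co-culture and 22.1 and 34.0 CPM under EX527. PMVK, which adds the next phosphate, was at 9.98 CPM alone, 18.2 and 17.96 in co-culture and 15.4 and 20.2 CPM under EX527, above monoculture in all 4 co-cultured libraries. ACAT2, the thiolase that opens the arm, and FDPS, farnesyl diphosphate synthase, were within 0.17 of monoculture on the log2 scale in co-culture. Both were lower with EX527, at 82.7 and 75.4 CPM against 109 and 106 CPM for ACAT2, and at 174 and 156 CPM against 226 and 229 CPM for FDPS. ACAT2 shares 454 exon bases with the opposite-strand gene TCP1, at 225 to 343 CPM. FDPS shares 693 exon bases with the antisense gene RUSC1-AS1, at 108 to 165 CPM.

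The sterol arm held the largest differences from monoculture. MSMO1, the methylsterol oxidase (chromosome 4, 165327667 to 165343164), was read at 296 CPM in monoculture, 94.1 and 102 in co-culture and 144 and 108 CPM under EX527. No co-cultured library came near monoculture. Its log2 fold change in co-culture was -1.59 (SE 0.26, edgeR adjusted p = 0.126), a 3.02-fold lower level, and -1.64 with either EX527 library left out (adjusted p = 3.8e-92 without replicate 1 and 7.46e-21 without replicate 2). MSMO1 was also among the few members higher with EX527 than in co-culture, at 0.36 (SE 0.22, adjusted p = 0.379), with non-overlapping libraries; the difference passed without replicate 2 (0.60, adjusted p = 2.05e-08) but not without replicate 1 (0.14, adjusted p = 0.171).

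SQLE, squalene epoxidase, a control point of the arm, was at 154 CPM in monoculture, 76.9 and 75.9 in co-culture and 52.5 and 72.5 CPM under EX527. CYP51A1, the lanosterol demethylase, was at 160 CPM alone, 80.5 and 78.0 in co-culture and 67.4 and 74.9 CPM under EX527. CYP51A1 shares 108 exon bases with AKAP9 on the opposite strand, which was at 217 CPM alone, 110 and 121 in co-culture and 179 and 113 CPM under EX527. SC5D, the sterol desaturase, was at 110 CPM alone and at 62.4 to 71.3 CPM in the other 4 libraries. Against monoculture the log2 fold changes of SQLE, CYP51A1 and SC5D were -1.01, -1.01 and -0.79 in co-culture, and -1.30, -1.17 and -0.69 in EX527 co-culture. None passed with all 5 libraries (edgeR adjusted p = 0.146 to 0.194 in co-culture and 0.614 with EX527), and all passed with either EX527 library left out, with adjusted p-values of 9.96e-07 or smaller.

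TM7SF2, a sterol reductase (chromosome 11, 65111845 to 65116384), went the opposite way. It was read at 12.2 CPM in monoculture, 54.1 and 49.99 in co-culture and 11.7 and 18.8 CPM under EX527. Both co-culture libraries stood far above the other 3. Its neighbour VPS51, which shares 18 exon bases on the same strand, was at 47.7 CPM alone, 105 and 87.8 in co-culture and 30.6 and 58.4 CPM under EX527. The log2 fold change was 2.09 in co-culture against monoculture (SE 0.39, edgeR adjusted p = 0.132) and -1.78 in EX527 against co-culture (SE 0.29, adjusted p = 0.0997), the member with the smallest p in that comparison. The second value was -1.46 without EX527 replicate 1 (adjusted p = 2.67e-37) and -2.11 without replicate 2 (adjusted p = 7.92e-19), and TM7SF2 was the only member called when the replicate number was used as a block (-1.75, adjusted p = 0.0243).

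The other 6 enzymes of the arm had log2 fold changes of -0.07 to 0.56 in co-culture against monoculture, and each was lower with EX527 than in co-culture in both fits that leave out an EX527 library. FDFT1, squalene synthase, was read at 350 CPM alone, 394 and 387 in co-culture and 255 and 271 CPM under EX527. EBP, the sterol isomerase, was at 65.5 CPM alone, 96.1 and 97.1 in co-culture and 69.9 and 62.8 CPM under EX527. NSDHL and HSD17B7, which act on methylated intermediates, were 0.48 and 0.51 lower with EX527 on the log2 scale. HSD17B7 is uncertain, since its near copy HSD17B7P2 was read at 10.3 to 22.8 CPM, against 17.3 to 27.0 CPM for the gene. LSS, lanosterol synthase, and DHCR7, which performs the last reduction to cholesterol, depended on the library. LSS was at 72.9 CPM alone, 103 and 99.8 in co-culture and 31.3 and 78.5 CPM under EX527. DHCR7 was at 171 CPM alone, 190 and 176 in co-culture and 50.4 and 142 CPM under EX527, so that replicate 1 held 2.81 times less than replicate 2. Against co-culture, DHCR7 fell by 0.36 without EX527 replicate 1 (edgeR adjusted p = 7.15e-05) and by 1.81 without replicate 2 (adjusted p = 2.26e-20).

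**Figure D2:**
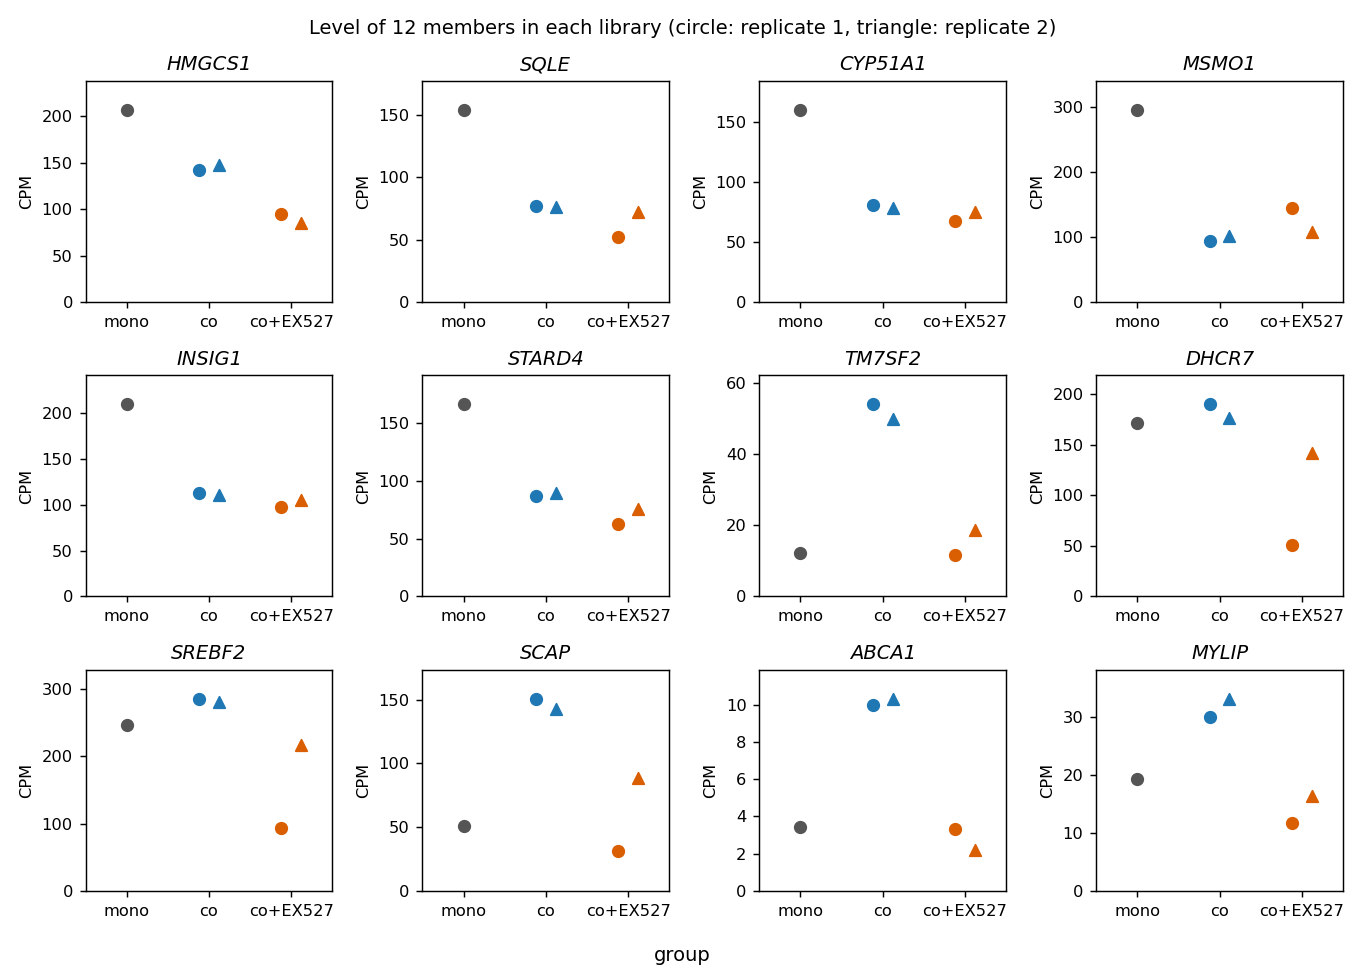
CPM of 12 members (vertical axis, from 0) in each library, by group, with circles for replicate 1 and triangles for replicate 2. HMGCS1, SQLE, CYP51A1, MSMO1, INSIG1 and STARD4 are highest in monoculture; TM7SF2, ABCA1 and MYLIP are highest in co-culture; DHCR7, SREBF2 and SCAP differ 2.31-fold to 2.86-fold between both EX527 libraries.

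Among the controllers of SREBP2, INSIG1, itself a target of the factor, followed the low enzymes. It was read at 210 CPM in monoculture, 113 and 111 in co-culture and 97.4 and 105 CPM under EX527, with log2 fold changes against monoculture of -0.91 (SE 0.21, edgeR adjusted p = 0.160) in co-culture and -1.05 (SE 0.21, adjusted p = 0.614) with EX527. Both passed without EX527 replicate 1 (-0.95 and -1.04) and without replicate 2 (-0.95 and -1.11). SREBF2, the gene of SREBP2 (chromosome 22, 41833105 to 41907306), was at 247 CPM in monoculture, 286 and 281 in co-culture and 93.6 and 216 CPM under EX527. SCAP, the escort protein, was at 50.6 CPM alone, 151 and 143 in co-culture and 31.02 and 88.7 CPM under EX527. Both EX527 libraries were below co-culture for SREBF2 and SCAP and differed from each other 2.31-fold and 2.86-fold. SCAP fell against co-culture, at -0.72 without EX527 replicate 1 (edgeR adjusted p = 2.12e-15) and -2.197 without replicate 2 (adjusted p = 3.2e-22), but against monoculture its value was 0.77 without replicate 1 and -0.71 without replicate 2.

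Of the transporters, STARD4, a soluble carrier of sterols, was read at 166 CPM in monoculture, 86.5 and 89.1 in co-culture and 62.2 and 75.4 CPM under EX527. Against monoculture its log2 fold change was -0.92 (SE 0.23, edgeR adjusted p = 0.176) in co-culture and -1.27 under EX527 (SE 0.23, adjusted p = 0.614), and both values passed when either EX527 library was left out. Its overlapping antisense gene STARD4-AS1 showed another order, at 57.4 CPM alone, 122 and 131 in co-culture and 60.9 and 72.3 CPM under EX527. NPC1 and NPC2 move cholesterol out of lysosomes. NPC1 was at 102 CPM alone, 81.2 and 85.3 in co-culture and 70.5 and 119 CPM under EX527, and NPC2 at 61.8 CPM alone, 84.7 and 79.6 in co-culture and 88.9 and 65.8 CPM under EX527. For both, the EX527 libraries lay on either side of co-culture.

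ABCA1, which loads cholesterol onto lipoproteins (chromosome 9, 104781006 to 104928155), was read at 3.41 CPM in monoculture, 9.98 and 10.3 in co-culture and 3.32 and 2.19 CPM under EX527. Both co-culture libraries were well above the other 3. The log2 fold change was 1.57 in co-culture against monoculture (SE 0.40, edgeR adjusted p = 0.176) and -1.87 in EX527 against co-culture (SE 0.31, adjusted p = 0.102). The rise in co-culture passed at 1.53 without EX527 replicate 1 (adjusted p = 6.15e-12) and at 1.53 without replicate 2 (adjusted p = 4.28e-08). The fall with EX527 passed at -2.204 (adjusted p = 3.29e-20) and -1.57 (adjusted p = 3.39e-09). Against monoculture, EX527 co-culture differed by -0.29 (SE 0.42, edgeR adjusted p = 0.762).

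MYLIP had the same order of groups, at 19.4 CPM alone, 30.1 and 33.2 in co-culture and 11.7 and 16.5 CPM under EX527. MYLIP fell against co-culture by 0.94 without EX527 replicate 1 (edgeR adjusted p = 4.68e-14) and by 1.39 without replicate 2 (adjusted p = 6.09e-13). ABCG1, the other transporter, did not: it stayed between 10.4 and 13.8 CPM in all 5 libraries. Of the receptors, NR1H3 (LXR alpha) was at 11.2 CPM alone and at 16.0 to 19.2 CPM in the other 4 libraries, while NR1H2 (LXR beta) was at 61.4 CPM alone, 58.4 and 54.3 in co-culture and 43.2 and 79.8 CPM under EX527, on both sides of the rest. SOAT1, which turns cholesterol into esters for storage, went with MYLIP and ABCA1, at 32.2 CPM alone, 45.9 and 48.3 in co-culture and 24.2 and 29.2 CPM under EX527. It fell with EX527 against co-culture by 0.68 without replicate 1 (edgeR adjusted p = 3.71e-10) and by 0.91 without replicate 2 (adjusted p = 4.87e-10). Opposite-strand neighbours share 189 exon bases with NR1H3 (ACP2, at 12.9 to 43.0 CPM), 225 with MVK (MMAB, at 24.1 to 44.3 CPM), 619 with NPC1 (RMC1, at 39.7 to 51.2 CPM) and 138 with GGPS1 (ARID4B, at 103 to 169 CPM). GGPS1, which makes the isoprenoid used to anchor small GTPases, was at 39.0 CPM alone, 33.0 and 32.8 in co-culture and 49.7 and 34.5 CPM under EX527.

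Synthesis was then set against efflux in each library, as the mean log2 CPM of the 18 enzymes minus that of ABCA1 and ABCG1. The synthesis mean was 6.38 in monoculture, 6.37 and 6.33 in co-culture and 5.72 and 5.97 with EX527, and the efflux mean was 2.68, 3.56 and 3.47, and 2.57 and 2.47. The difference was therefore 3.71 in monoculture, 2.82 and 2.86 in co-culture and 3.15 and 3.50 with EX527. Co-culture was 0.87 below monoculture and EX527 co-culture 0.49 above co-culture. The pooled SD of replicates was 0.18, but it joins a close co-culture pair with a wider EX527 pair. Monoculture, with 1 library, has no known spread. The value for EX527 against co-culture was 0.66 without EX527 replicate 1 and 0.31 without replicate 2. EX527 co-culture was 0.38 below monoculture, and 0.20 and 0.55 below it in those fits. Since the members were chosen with results known, no test is given. Against monoculture, co-culture differed in the efflux mean and hardly in the synthesis mean. With EX527 both means were lower than in co-culture, efflux by more than synthesis. The order of both co-culture groups rested on ABCA1. With ABCG1 alone as the efflux gene the difference was 2.82 in monoculture, 2.58 and 2.76 in co-culture and 2.33 and 2.19 with EX527. That turns the order around, with both groups still below monoculture. The flat synthesis mean in co-culture also hides opposite parts: 9 enzymes had a positive and 9 a negative log2 fold change, and the summed level was 1957 and 1914 CPM against 2253 CPM in monoculture. With EX527 the sum was 1341 and 1463 CPM.

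**Figure D3:**
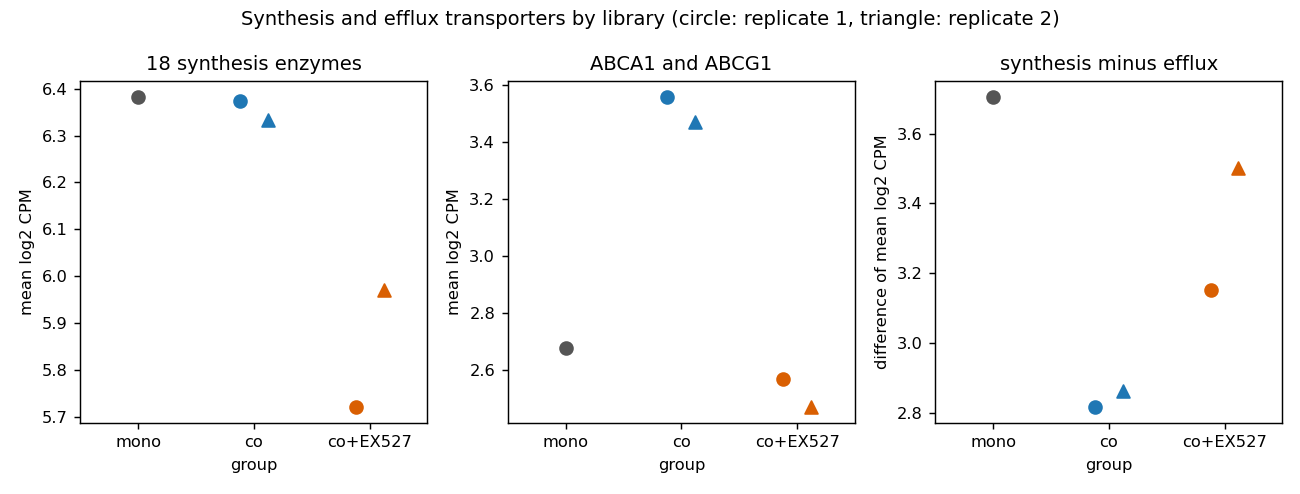
Mean log2 CPM of the 18 synthesis enzymes, of ABCA1 with ABCG1, and their difference (vertical axes), by group, with 1 point per library. The synthesis mean is lowest with EX527, the efflux mean is highest in co-culture, and their difference is lowest in co-culture, at 2.82 and 2.86.

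Levels of different genes were set side by side per kilobase of exon. In monoculture MSMO1 was the highest member, at 104 CPM per kb, ahead of FDFT1 at 69.0 CPM per kb and INSIG1 at 57.5 CPM per kb. In co-culture FDFT1 led at 76.9 CPM per kb, and MSMO1 was at 34.4 CPM per kb. ABCA1 was the lowest member in all 3 groups, at 0.301 CPM per kb alone, 0.895 in co-culture and 0.243 with EX527.

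Over the 31 genes, the counts in each comparison are read against all genes tested. In co-culture against monoculture none was called with all libraries (background 0%), and in both fits that leave out an EX527 library 11 were called lower and 11 higher, where 26% of all genes were called in each direction. The lower ones were HMGCS1, IDI1, MVD, SQLE, CYP51A1, MSMO1, SC5D, INSIG1, STARD4, NPC1 and GGPS1, and the higher ones MVK, PMVK, LSS, TM7SF2, EBP, SCAP, NPC2, ABCA1, MYLIP, NR1H3 and SOAT1. Taken 1 at a time, the fit without replicate 1 called 11 lower and 11 higher (27.1% and 26.9% of all genes), and that without replicate 2 also 11 and 11 (22.5% and 22.1%). Neither direction prevailed. Both co-culture libraries lay below monoculture for 13 members and above it for 17, where 40.7% and 42.8% of all genes did. The median log2 fold change of the members was 0.12, against 0.05 over all genes. By the DESeq2 Wald test 5 were called lower and 2 higher, where it called 4.35% and 2.67% of all genes. They were MSMO1, SQLE, CYP51A1, STARD4 and INSIG1, and TM7SF2 and SCAP.

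In EX527 against co-culture none was called with all libraries (background 0%). There 26 of 31 members had a negative value, where 43.8% of all genes did. The median of the members was -0.44, against 0.15 over all genes. In both fits that leave out an EX527 library 17 were called lower, where 16.7% of all genes were, and 0 higher, where 12.4% were. Of these 17, 11 were among the 18 synthesis enzymes, and the other 6 were SREBF2, SCAP, STARD4, ABCA1, MYLIP and SOAT1. The fit without replicate 1 called 19 lower and 2 higher (22.6% and 21.7% of all genes), and that without replicate 2 called 21 and 3 (31.1% and 39.1%). NPC1 and NR1H2 were called in both fits in opposite directions, higher without replicate 1 and lower without replicate 2. Both EX527 libraries lay below both co-culture libraries for 21 members, against 26.8% of all genes, and above them for 3, against 28.3%. By DESeq2 4 were called lower, where 4.12% of all genes were, and 0 higher, where 5.39% were. The 4 were TM7SF2, ABCA1, MYLIP and SCAP. The replicate block called 1.77% of all genes lower and 1.31% higher. When library size alone was used for scaling, the median of all genes went from 0.15 to 0.42 and that of the members from -0.44 to -0.16. Under it 19 of 31 were negative, where 31.9% of all genes were. IDI1, CYP51A1, INSIG1, PMVK, NPC2, ABCG1 and NR1H3 then went from negative to positive.

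**Figure D4:**
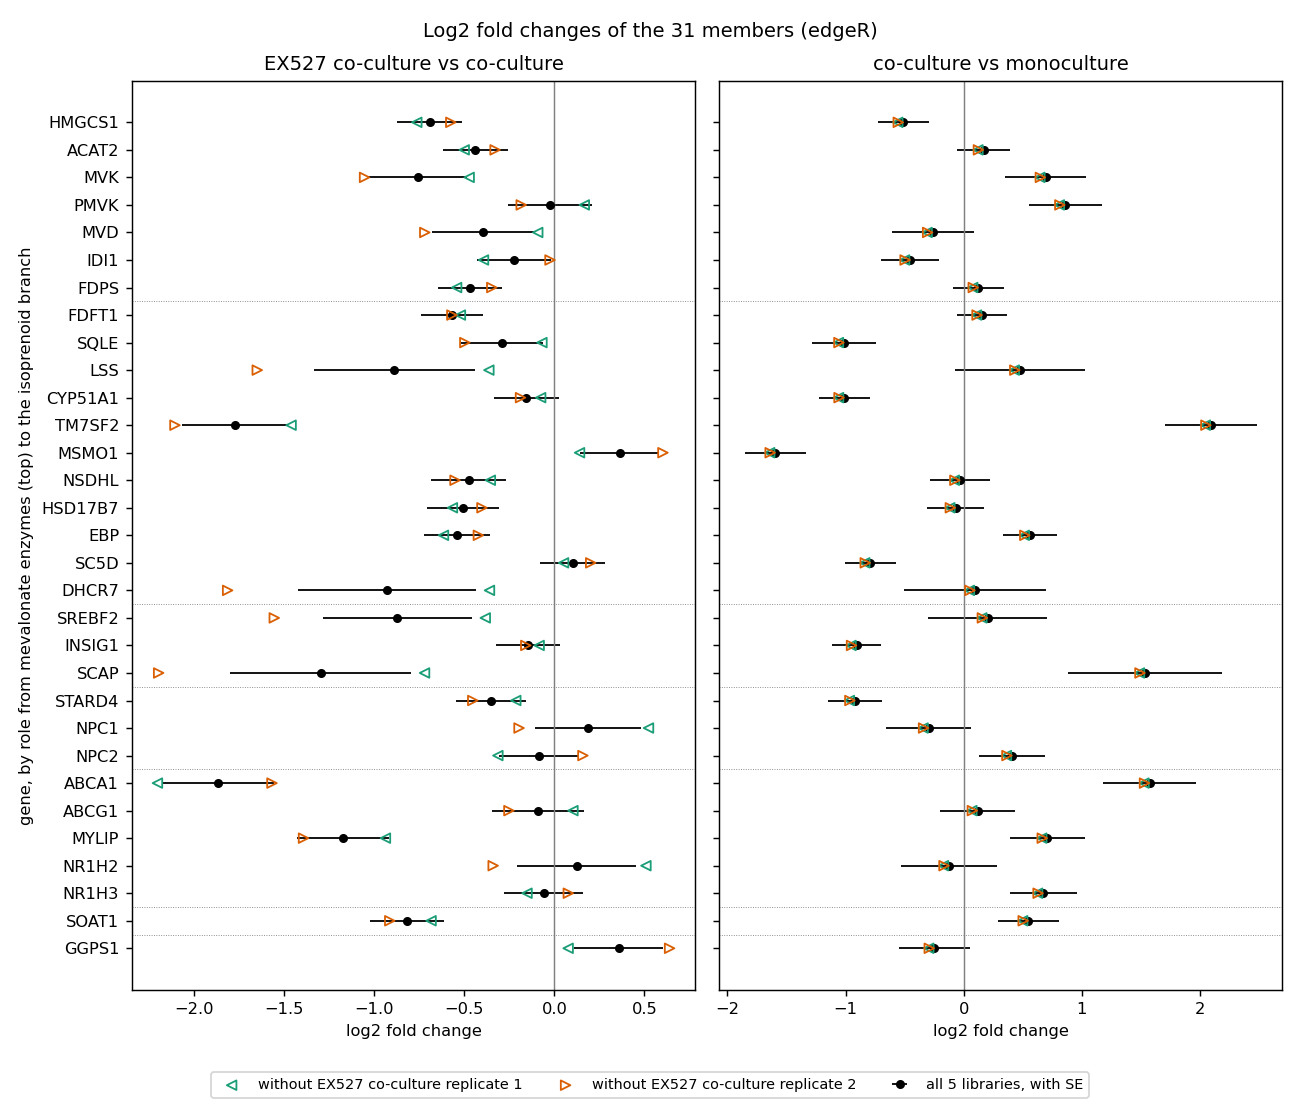
Log2 fold changes (horizontal axes) of the 31 members for EX527 co-culture against co-culture and co-culture against monoculture, with black points and SE bars from all 5 libraries and triangles from fits that leave out 1 EX527 library. For SCAP, DHCR7, LSS and SREBF2 the triangles of the EX527 comparison lie far apart; for co-culture against monoculture they coincide.

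In EX527 co-culture against monoculture, which shares libraries with both comparisons above, none was called with all libraries (background 0%). In both fits that leave out an EX527 library 15 members were called lower and 2 higher, where 14.1% and 5.5% of all genes were. The fit without replicate 1 called 16 lower and 5 higher (19.1% and 14.7% of all genes), and that without replicate 2 called 22 and 4 (28.8% and 33.4%). SCAP and NR1H2 were called in opposite directions by both. The lower ones in both comprised 12 of 18 synthesis enzymes with SREBF2, INSIG1 and STARD4, and the higher ones were PMVK and NR1H3. All 4 co-cultured libraries lay below monoculture for 10 members, where 19.2% of all genes did: HMGCS1, MVD, IDI1, SQLE, CYP51A1, MSMO1, HSD17B7, SC5D, INSIG1 and STARD4. They lay above it for 3, PMVK, NPC2 and NR1H3, where 19.9% of all genes did.

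Other genes of the same biology were counted in 3 lists. Of 25 genes of sterol handling, 24 were tested; in both fits that leave out an EX527 library 9 were lower and 3 higher in EX527 against co-culture (16.7% and 12.4% of all genes), and 10 lower and 10 higher in co-culture against monoculture (26% each way). INSIG2, the second INSIG protein, was read at 84.2 CPM in monoculture, 32.1 and 32.5 in co-culture and 65.9 and 67.4 CPM under EX527. Unlike INSIG1, its level with EX527 lay between the other groups. The fatty acid desaturases FADS2 and FADS1 were lower with EX527 than in co-culture, at -1.56 (SE 0.39) and -1.11 (SE 0.34), with edgeR adjusted p of 0.167 and 0.202. Of 15 isoprenoid genes 4 were lower and 3 higher with EX527 in both fits, set beside the same 16.7% and 12.4% of all genes, with DOLK, the dolichol kinase, at 7.45 CPM alone, 25.7 and 25.8 in co-culture and 8.39 and 17.1 CPM under EX527. SRD5A3, which makes dolichol, and COQ2, of coenzyme Q synthesis, differed by -0.89 and -0.77. Of 8 LXR targets outside the 31 genes 4 were lower and 1 higher, beside the same shares. SREBF1, the lipogenic LXR target, was at 101 CPM alone, 383 and 353 in co-culture and 41.5 and 106 CPM under EX527, highest in co-culture as ABCA1 was. ABCA3, also on that list, was higher with EX527 than in co-culture, at 35.9 and 57.0 CPM against 24.3 and 24.3 CPM.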

How the data were processed

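Per the series' design text and the labels' protocols, libraries were made from 500 ng of poly(A)-selected RNA, ribosomal reads were removed, and STAR 2 mapped the rest to GRCh38.p7. The submitters' processing notes also name fastp and featureCounts. The sources used here do not give the annotation, the strand setting or how shared reads were counted. The authors deposited raw counts per gene, which were used; their table of counts divided by size factors was not.

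In R 4.3.3, edgeR 4.0.16 (quasi-likelihood F-test, newer dispersion estimate) was run on the counts of 5 libraries by group, with 2 residual degrees of freedom, after filterByExpr (minimum count 10) and TMM scaling. Adjusted p-values are Benjamini-Hochberg over all tested genes, called under 0.05. The SE is the fold change over the root of F. Log2 CPM used a prior count of 2. Alternatives were DESeq2 1.42.0, limma-voom 3.58.1, other scalings, no filter and leaving out each replicate. At these depths 3 reads are 0.0574 to 0.0657 CPM before scaling, which covers counting error only. Replicates differed beyond sampling noise (mean chi-square per gene 5.95 in co-culture and 152 with EX527). Scripts were tested on simulated counts with the same spread in every group. The co-culture and EX527 pairs differed in spread, so that test covers the code and not these data. Gene positions and exon lengths come from GENCODE 44. The members and lists were chosen with earlier results of these data known. All members are named; of other lists, up to 3 genes with the largest change in EX527 against co-culture and a mean log2 CPM of at least 2. A gene that this rule names is not reported here.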

Additional observations from a re-analysis of the deposited data

How the results depend on the processing

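No gene and no member was called in any of the 3 comparisons under another scaling, without the filter on low counts, by limma-voom or with either co-culture library left out; the older dispersion estimate called 21 genes in EX527 against co-culture, and no member. DESeq2 called 3296 genes and 4 members in EX527 against co-culture, 2432 and 7 in co-culture against monoculture, and 75 and 1 in EX527 co-culture against monoculture. Leaving out 1 library at a time gave 0 to 24078 genes and 0 to 24 members, 0 to 15861 and 0 to 22, and 0 to 21330 and 0 to 26, in the same order of comparisons; the high values came from leaving out an EX527 library, where the common dispersion went from 0.264 to 0.00434 or 0.0045, and it was 0.456 without either co-culture library. Replicate numbers are shared by both co-culture groups, but nothing in the labels ties them, and deviations of same-numbered libraries correlated at -0.363 over 11232 genes. With the number as a replicate block over 4 libraries, 867 genes and 1 member were called in EX527 against co-culture, and PMVK was at 0.023 on the log2 scale, against a negative value without the block. With the numbers crossed, chosen after seeing the data, 3382 genes and 4 members were called, with PMVK at 0.022. The difference of synthesis and efflux kept its direction under the other scalings, another prior count and each left-out library. With ABCG1 as the only efflux gene, both co-culture groups stayed below monoculture, but EX527 co-culture was below co-culture instead of above it. With medians in place of means the difference was -1.08 for co-culture against monoculture.

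Members with a value near 0, or with EX527 libraries far apart, changed sign in some alternatives. In EX527 against co-culture, PMVK was at 0.019 under DESeq2's size factors, 0.020 in DESeq2 and 0.24 under library size, which also gave 0.066 for IDI1, 0.12 for CYP51A1, 0.13 for INSIG1, 0.21 for NPC2, 0.17 for ABCG1 and 0.23 for NR1H3. Leaving out 1 library at a time gave -0.18 to 0.17 for PMVK, -0.20 to 0.52 for NPC1, -0.31 to 0.16 for NPC2, -0.25 to 0.10 for ABCG1, -0.34 to 0.51 for NR1H2 and -0.16 to 0.078 for NR1H3, and in co-culture against monoculture -0.082 to 0.023 for NSDHL. In EX527 co-culture against monoculture it gave -0.41 to 0.17 for MVK, -1.22 to 0.064 for LSS, -0.058 to 0.58 for TM7SF2, -0.10 to 0.095 for EBP, -0.71 to 0.77 for SCAP, -0.54 to 0.18 for NPC1, -0.18 to 0.17 for ABCG1, -0.51 to 0.34 for NR1H2 and -0.22 to 0.35 for GGPS1. There DESeq2's size factors, no filter and the DESeq2 test gave -0.022, -0.035 and -0.022 for EBP, -0.020, -0.026 and -0.018 for ABCG1, and -0.053, -0.051 and -0.051 for NR1H2, which was -0.069 in limma-voom. Library size gave 0.17 for MVK and 0.12 for NPC1. The cause was not tested.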
